A study of Mus musculus with 8 samples.

Results

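The S100 proteins are small EF-hand calcium-binding proteins, and 8 of their genes are described here in mouse bone marrow neutrophils: S100a8, S100a9, S100a11, S100a6, S100a4, S100a10, S100a13 and S100a1. The members were the rows with these symbols among the 24421 genes of the count table, and all 8 passed the filter on low counts, as did 12254 genes in all. RNA was sequenced from neutrophils isolated with magnetic beads from the bone marrow of 8-week-old female C57BL/6 mice, either wild-type (WT) or Padi4 knockout (KO). Padi4 encodes the enzyme PAD4, which converts arginine to citrulline in proteins, and the KO mice were made by removing its exon 1. The cells were left unstimulated or given R848, an agonist of the endosomal receptor TLR7, at 1 µg/ml for 6 h. Each of the 4 groups (unstimulated WT, unstimulated Padi4 KO, WT with R848 and Padi4 KO with R848) had 2 libraries. The labels give 0 h for the unstimulated libraries and the methods give 6 h of culture. If the labels hold, each R848 response below also includes 6 h in culture. The labels do not say whether duplicates came from separate mice, so p-values measure the spread between these libraries, which may be technical. The fit estimates that spread by pooling across genes, so its standard errors can be smaller than a gene's own duplicates would give.

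S100 proteins bind calcium through paired EF-hand loops, change shape and then bind target proteins. S100A8 and S100A9 form the heterodimer calprotectin, the main cytosolic protein complex of neutrophils, which binds zinc, manganese and calcium, withholds metals from microbes and, once released, acts as an alarmin through TLR4 and RAGE. S100A10 differs in that its loops no longer bind calcium, and it forms a tetramer with annexin A2 at membranes. S100A4 binds non-muscle myosin, S100A6 binds calcyclin-binding protein, S100A11 binds annexin A1, S100A13 takes part in the release of FGF1 and IL-1α, and S100A1 is best known from the heart.

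All 8 genes lie on chromosome 3 in the mouse build GRCm38 of the GENCODE annotation. In order along the chromosome they begin with S100a1 at chr3:90511034-90514392 on the minus strand, S100a13 at chr3:90514435-90524581 on the plus strand, S100a4 at chr3:90603771-90606045 on the plus strand, S100a6 at chr3:90612882-90624181 on the plus strand, S100a8 at chr3:90668978-90670035 on the plus strand and S100a9 at chr3:90692632-90695721 on the minus strand. Further along lie S100a11 at chr3:93520488-93526287 and S100a10 at chr3:93555080-93564643, both on the plus strand. S100a1 and S100a13 start back to back, with 42 bases between their first bases. S100a8 and S100a9 point towards each other across 22596 bases. In exons, S100a4 shares 302 bases with Gm42674 on the same strand, and 47.4% of the 50-base words of its transcripts also occur in that gene. Of the 50-base words of S100a11, 41.1% occur in Gm12854, 23.4% in Gm7665 and 4.33% in Gm29240. None of these 4 genes is a row of the count table, and how reads on the shared stretches were assigned was not tested. The counts of S100a4 and S100a11 are therefore less certain than those of the other members, which shared no such word with another gene.

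Upstream sequences are given for S100a8, S100a9 and S100a11, whose transcripts were lower in Padi4 KO, and for S100a4, whose transcript was higher. They were taken from RefSeq promoters on GRCm38.p6, which held 7 of the 8 members, as the bases before the transcript start, written 5′ to 3′ on the strand of the gene. Bases that GENCODE places within the gene were left out, which removed 93 bases for S100a8 and 8 for S100a11. The stretches are chr3:90668821-90668977 (plus strand) for S100a8, chr3:90695722-90695971 (minus strand) for S100a9, chr3:93520246-93520487 (plus strand) for S100a11 and chr3:90603520-90603769 (plus strand) for S100a4. Capitals mark matches to a motif on either strand.
S100a8: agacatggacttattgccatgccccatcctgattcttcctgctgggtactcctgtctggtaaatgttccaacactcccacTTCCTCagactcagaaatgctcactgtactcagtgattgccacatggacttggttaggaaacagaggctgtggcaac
S100a9: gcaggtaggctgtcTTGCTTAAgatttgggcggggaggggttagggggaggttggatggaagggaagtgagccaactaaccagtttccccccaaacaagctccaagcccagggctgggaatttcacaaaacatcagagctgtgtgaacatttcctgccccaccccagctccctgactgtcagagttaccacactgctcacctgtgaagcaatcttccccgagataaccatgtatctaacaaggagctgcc
S100a11: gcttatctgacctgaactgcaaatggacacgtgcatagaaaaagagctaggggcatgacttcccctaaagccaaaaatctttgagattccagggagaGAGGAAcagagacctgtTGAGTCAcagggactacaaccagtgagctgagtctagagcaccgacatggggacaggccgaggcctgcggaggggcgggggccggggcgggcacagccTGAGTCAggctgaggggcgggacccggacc
S100a4: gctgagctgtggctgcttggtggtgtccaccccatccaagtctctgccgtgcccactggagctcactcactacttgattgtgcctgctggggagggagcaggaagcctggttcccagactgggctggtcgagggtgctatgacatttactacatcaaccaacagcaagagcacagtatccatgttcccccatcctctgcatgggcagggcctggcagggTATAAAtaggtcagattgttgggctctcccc

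The motifs searched in the 250 bases before each RefSeq start were TATAAA (the TATA box), TGANTCA (AP-1), TTGCNNAA (C/EBP) and GAGGAA (the core bound by ETS factors such as PU.1), together with the NF-κB consensus, on both strands. The S100a4 window held TATAAA from 31 to 26 bases before the start. The S100a8 window held GAGGAA on the opposite strand from 170 to 165 bases before the start, which is in the stretch shown. A second GAGGAA, from 36 to 31 bases, and TATAAA, from 30 to 25 bases, directly follow each other in the part of the S100a8 window that GENCODE places within the gene. The S100a9 window held TTGCNNAA from 236 to 229 bases before the start. The S100a11 window held TGANTCA from 136 to 130 and from 38 to 32 bases and GAGGAA from 153 to 148 bases before the start. Of all 32851 RefSeq promoter windows of this length, 12.4% held TATAAA, 6.75% held TGANTCA, 9.56% held TTGCNNAA, 23.3% held GAGGAA and 0.356% held the NF-κB consensus. The windows of S100a1, S100a6 and S100a13 held none of the 5 motifs, and those of S100a1 and S100a13 overlap by 104 bases.

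The libraries held between 562446 and 1177972 counts on genes, and those of Padi4 KO were on average 1.66 times deeper than those of WT. Padi4 had 527 and 590 counts in unstimulated WT and 166 and 234 in WT with R848, against 21 to 54 in the 4 Padi4 KO libraries. A count of 3, the lowest level taken as detectable, stood for 2.55 to 5.33 CPM (counts-per-million) of the library total. Genes that mark erythroid cells (12 genes, of which the 4 haemoglobin genes were at 0 in every library) summed to 31.4 to 127.9 CPM in WT and 1165 to 1354 CPM in Padi4 KO. Immature neutrophil genes summed to 73132 to 74705 CPM in unstimulated WT and 70046 to 71591 CPM in WT with R848. In Padi4 KO they summed to 56658 to 57033 CPM without stimulation and 53418 to 54351 CPM with R848. The 6 neutrophil genes in the table summed to 27398 and 27592 CPM in unstimulated WT and 21159 to 21562 CPM in unstimulated Padi4 KO, and with R848 to 13810 to 14268 CPM in WT and 12878 to 13254 CPM in Padi4 KO. T and NK cell genes summed to at most 39.0 CPM, with Cd3e and Klrb1c at 0 in every library, and B cell genes to at most 16.8 CPM. Ly6g, a defining neutrophil gene, is not a row of the count table used here.

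S100a9 was the gene with the most counts in each of the 8 libraries, and S100a8 ranked 2nd or 3rd. Over all libraries they held 96.4% of the counts of the 8 members. In replicates 1 and 2, S100a8 and S100a9 together took 7.70% and 7.21% of the counts on genes in unstimulated WT and 9.03% and 7.51% in WT with R848. In Padi4 KO they took 6.28% and 6.05% without stimulation and 6.35% and 6.16% with R848. Each Padi4 KO library was thus below each WT library, and in Padi4 KO the shares with and without R848 overlapped. The exact 95% binomial intervals, which cover counting error only, were 8.96% to 9.10% and 7.44% to 7.57% for WT with R848, so that the duplicates differed far beyond counting error. No test of the shares was run. For 1 group of 2 libraries against another, the smallest p of an exact permutation test is 0.333.

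**Figure D1:**
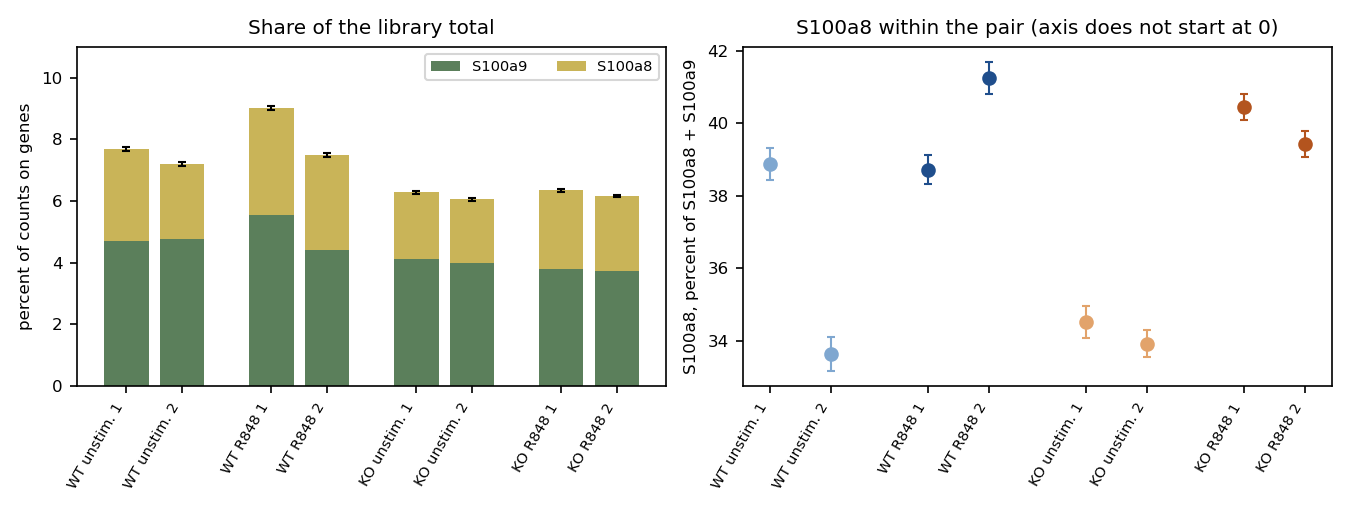
Left, percent of each library's counts on genes taken by S100a9 and S100a8 (stacked bars, exact 95% interval of the sum), where the 4 Padi4 KO libraries (6.05% to 6.35%) lie below the 4 WT libraries (7.21% to 9.03%). Right, S100a8 as a percent of S100a8 plus S100a9 counts with Wilson 95% intervals on an axis that does not start at 0, from 33.6% in replicate 2 of unstimulated WT to 41.3% in replicate 2 of WT with R848.

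Per length of the principal transcript, levels were compared as CPM of the library total per kilobase. S100a9 ranged from 71921 to 106591 and S100a8 from 42240 to 71942, and within each library S100a9 was the higher. S100a11 followed with 1827 to 3681 and S100a6 with 1252 to 1748. S100a4 (53.3 to 218.6) was above S100a13 (34.8 to 73.6) and S100a10 (15.3 to 101.9) within each library, and the last 2 changed order between libraries. S100a1 had the lowest level with 2.21 to 16.1. The calprotectin genes thus stood more than an order of magnitude above the other members. Of the other S100 rows, 6 (S100a5, S100a14, S100a16, S100b, S100g and S100z) had 0 counts in each library, and S100a2, S100a3 and S100a7a never exceeded 3 counts.

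Changes were tested with edgeR's quasi-likelihood test on counts scaled with TMM factors, with Benjamini-Hochberg adjustment over the 12254 genes tested, and called at an adjusted p (false discovery rate) below 0.1. CPM values given below for members use the TMM factors. In the response of WT neutrophils to R848, 4 of the 8 members were called, 3 higher and 1 lower, where 29.5% of all genes tested were called (13.5% higher and the rest lower). In Padi4 KO neutrophils 5 members were called, 3 higher and 2 lower, against 35.1% of all genes (19.2% higher and the rest lower). With TMM factors, S100a8 and S100a9 were called higher and S100a11 lower in both, and S100a9 lost both calls by library size alone. The split of the member calls depended on the scaling: by library size alone 1 was higher (S100a8) and 4 lower (S100a1, S100a6, S100a10 and S100a11) in WT, and 1 was higher (S100a8) and 3 lower (S100a6, S100a10 and S100a11) in Padi4 KO. In that scaling 4202 of the 12254 genes were called in WT, 25.6% of them higher, and 5084 in Padi4 KO, 24.9% of them higher. None of the members was called in these responses with a change of more than 2-fold, the size limit of the study, although 18.0% of genes passed that limit in WT and 16.9% in Padi4 KO. The median log2 fold change of the members was 0.19 in WT and 0.21 in Padi4 KO, beside -0.17 and -0.03 over all genes tested. By library size alone these medians were -0.12 and -0.16 for the members and -0.47 and -0.41 over all genes. Comparing Padi4 KO with WT, 6 members were called without stimulation (2 higher, 4 lower), against 24.0% of all genes (9.54% higher, 14.4% lower), and 5 after R848 (2 higher, 3 lower), against 17.3% (9.44% higher, 7.84% lower). The member median was -0.30 without stimulation and -0.07 after R848, beside -0.03 and 0.08 over all genes. By library size alone it was -0.0097 and 0.14, beside 0.22 and 0.30 over all genes. For the difference of response (Padi4 KO minus WT, as log2), 0 of 8 members were called, against 4.69% of all genes, and 0 had an unadjusted p under 0.05. DESeq2 also called 0 members there. These 5 comparisons share their libraries and are not independent of each other.

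S100a8 rose after R848 in both genotypes. It had 29688 and 23533 CPM in unstimulated WT and 43542 and 36658 CPM in WT with R848. In Padi4 KO it had 17563 and 16409 CPM without stimulation and 26885 and 25313 CPM with R848. The libraries with R848 lay above those without it in each genotype, and the level of Padi4 KO with R848 lay within the range of unstimulated WT. The rise was 1.51-fold in WT (log2 0.59, standard error (SE) 0.06, adjusted p = 1.2e-21 in edgeR) and 1.54-fold in Padi4 KO (log2 0.62, SE 0.06, adjusted p = 7.9e-24). The difference of response was 0.03 on the log2 scale (95% interval -0.13 to 0.19, adjusted p = 0.98). In Padi4 KO the level was lower than in WT by -0.65 on the log2 scale without stimulation (SE 0.06, adjusted p = 1.1e-24) and by -0.62 after R848 (SE 0.06, adjusted p = 7.1e-23). In a bulk sample, fewer cells that express a gene and less RNA per cell cannot be told apart.

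S100a9 had 46671 and 46427 CPM in unstimulated WT and 68892 and 52206 CPM in WT with R848. In Padi4 KO it had 33321 and 31960 CPM without stimulation and 39578 and 38889 CPM with R848. The duplicates were close to each other except in WT with R848, and all 4 Padi4 KO libraries lay below all 4 WT libraries. The log2 fold change after R848 was 0.38 in WT (SE 0.06, adjusted p = 4.2e-10 in edgeR) and 0.27 in Padi4 KO (SE 0.06, adjusted p = 2.2e-05). The WT value was 0.66 without replicate 2 of WT with R848. The Padi4 KO value was 0.14 without either library of WT with R848, which changes the TMM factors, and was still called, whereas DESeq2 did not call it (0.18, adjusted p = 0.19). The difference of response was -0.11 (95% interval -0.27 to 0.04, adjusted p = 0.59). It was called with relative log expression factors in place of TMM, at -0.27. Without replicate 2 of WT with R848 it was -0.52, outside that interval. Without that same library the difference of S100a8 was -0.32, also outside its interval of -0.13 to 0.19. These intervals thus understate how much the difference depends on 1 library. Padi4 KO was lower than WT by -0.51 without stimulation (SE 0.06, adjusted p = 5.3e-17) and by -0.63 after R848 (SE 0.06, adjusted p = 2.8e-25), and both calls for S100a9, as for S100a8, were made with each tool, filter and scaling tried and without each single library.

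**Figure D2:**
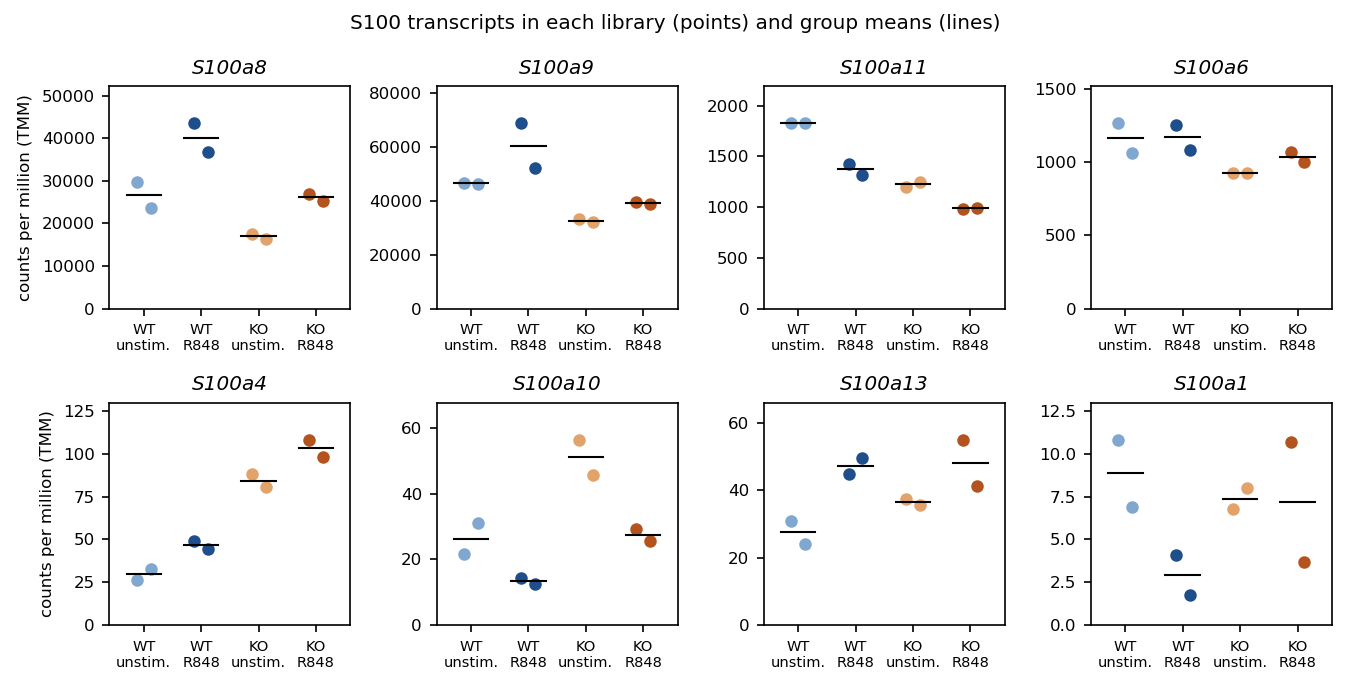
TMM-scaled CPM of the 8 members in the 2 libraries of each group (points) with the group mean (line), each panel with its own axis from 0. On this scale S100a8 and S100a9 were higher with R848 (S100a9 not by library size alone) and lower in Padi4 KO, S100a11 was lower in both, and S100a4 and S100a10 were higher in Padi4 KO.

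The direction of the S100a9 response depended on the scaling. Scaled by library size alone, the log2 fold change of S100a9 was 0.07 in WT (adjusted p = 0.43 in edgeR) and -0.11 in Padi4 KO (adjusted p = 0.12), neither of them called. In that scaling the median log2 fold change of genes with at least 10 counts on average was -0.38 in WT and -0.30 in Padi4 KO, beside -0.07 and 0.08 with TMM factors. Relative to that median, S100a9 stood at 0.45 in WT and 0.19 in Padi4 KO with TMM. A change of scaling shifts all genes together, so this relative value changes little by construction. The share of S100a9 in the library total was 4.71% and 4.79% in unstimulated WT and 5.53% and 4.41% in WT with R848, so that the WT shares overlapped where the TMM values did not. It was 4.12% and 4.00% in unstimulated Padi4 KO and 3.78% and 3.73% with R848. S100a8 was called higher in both genotypes under each scaling, at 0.28 in WT and 0.24 in Padi4 KO by library size alone. For the genotype comparisons, the same median was -0.16 without stimulation and 0.00 after R848 with TMM, and 0.12 and 0.21 by library size alone. S100a8 was lower in Padi4 KO by -0.36 and -0.40, and S100a9 by -0.23 and -0.40, under library size alone. Of all genes called with TMM factors, 45.8% were higher after R848 in WT and 54.7% in Padi4 KO, against 25.6% and 24.9% by library size alone. Between genotypes the higher share of calls was 39.8% without stimulation and 54.6% after R848 with TMM, against 77.2% and 81.8%. For the difference of response it was 73.2% with TMM and 40.7% with relative log expression factors.

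**Figure D3:**
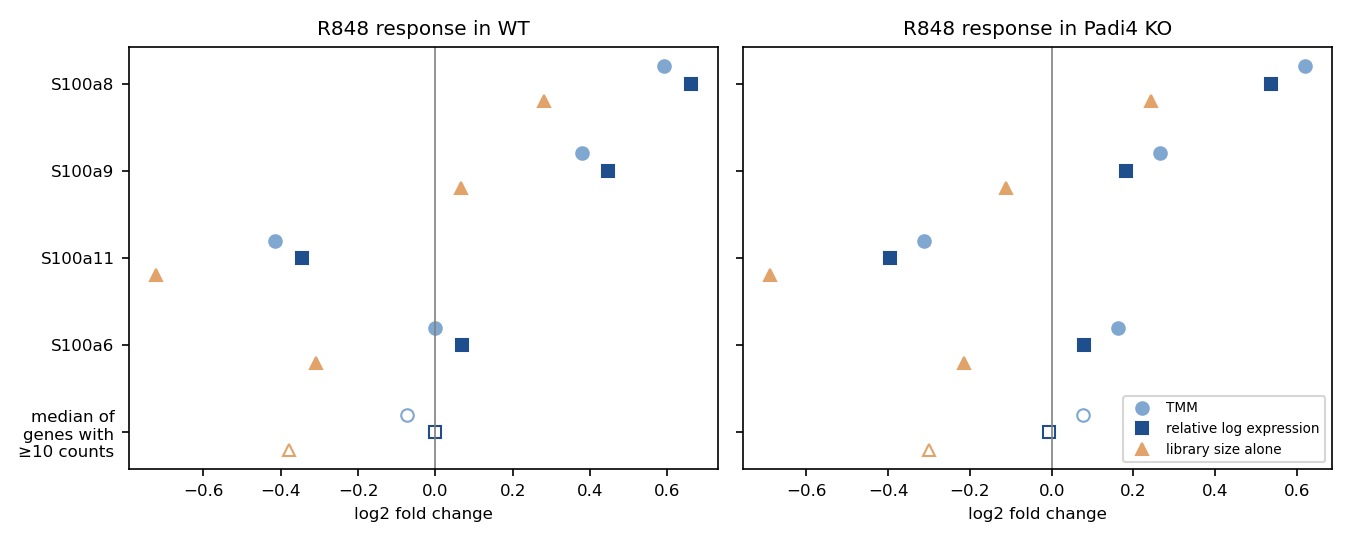
Log2 fold changes after R848 of the 4 most abundant members (filled) and the median of genes with at least 10 counts on average (open), with TMM factors, relative log expression factors or library size alone. Library size alone moves the members and the median to the left together, which takes S100a9 in Padi4 KO from 0.27 to -0.11.

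The counts of the calprotectin subunits within a library need no scaling. S100a8 made up 38.9% and 33.6% of the S100a8 plus S100a9 counts in unstimulated WT, and 38.7% and 41.3% in WT with R848. In Padi4 KO it made up 34.5% and 33.9% without stimulation and 40.5% and 39.4% with R848. In Padi4 KO the libraries with R848 lay above those without it, whereas in WT the ranges overlapped. The unstimulated WT duplicates differed beyond counting error, with Wilson 95% intervals of 38.5% to 39.3% and 33.2% to 34.1%. The mean part was 34.2% ± 0.42 (SD, n = 2) without stimulation and 39.9% ± 0.72 with R848 in Padi4 KO, against 36.3% ± 3.7 and 40.0% ± 1.8 in WT.

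S100a11 and S100a6 came next in abundance. S100a11 fell after R848 in both genotypes and was lower in Padi4 KO. It had 1828 and 1825 CPM in unstimulated WT, 1429 and 1313 CPM in WT with R848, 1202 and 1244 CPM in unstimulated Padi4 KO and 977 and 995 CPM in Padi4 KO with R848. No 2 groups overlapped. The log2 fold change after R848 was -0.42 in WT (SE 0.08, adjusted p = 7.5e-07 in edgeR) and -0.31 in Padi4 KO (SE 0.07, adjusted p = 0.00014), and the responses differed by 0.10 (95% interval -0.10 to 0.31). Without replicate 2 of WT with R848 the WT value was -0.26 and still called. Padi4 KO was lower than WT by -0.58 without stimulation (SE 0.07, adjusted p = 3.7e-13) and by -0.47 after R848 (SE 0.08, adjusted p = 3.6e-08). By library size alone the responses were -0.72 in WT and -0.69 in Padi4 KO and the genotype differences -0.29 and -0.26, all of them called. Annexin A1, to which S100A11 binds, was likewise called lower after R848 in both genotypes (Anxa1, log2 -1.08, SE 0.07, and -1.16, SE 0.07) and lower in Padi4 KO (-0.52, SE 0.07, and -0.60, SE 0.07).

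S100a6 had 1266 and 1064 CPM in unstimulated WT, 1255 and 1083 CPM in WT with R848, 923.3 and 923.8 CPM in unstimulated Padi4 KO and 1069 and 999 CPM in Padi4 KO with R848. With TMM factors the WT libraries with and without R848 overlapped, and the log2 fold change was 0.00 (SE 0.08, 95% interval -0.16 to 0.16). By library size alone it was -0.31 in WT and called lower (adjusted p = 0.0012). In Padi4 KO it was 0.16 (SE 0.08, adjusted p = 0.087 in edgeR), a call that was lost with DESeq2, with relative log expression factors, with the stricter filter and when either unstimulated Padi4 KO library or any one library with R848 was left out, and that turned to -0.21 by library size alone (adjusted p = 0.017). Unstimulated Padi4 KO was lower than WT (-0.34, SE 0.08, adjusted p = 0.00021), but not without replicate 1 of unstimulated WT (-0.20, adjusted p = 0.19) or by library size alone (-0.05, adjusted p = 0.74), and the value was -0.19 without either library of WT with R848. After R848 the difference was -0.17 (SE 0.08, adjusted p = 0.14), and without replicate 2 of WT with R848 it was -0.36 (adjusted p = 0.00040), with relative log expression factors -0.27 (adjusted p = 0.0055), and by library size alone 0.04. With relative log expression factors 6 members were thus called between genotypes after R848, 4 of them lower. In that scaling 2349 of the 12254 genes tested were called, 42.1% of them higher.

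With TMM factors, a lower level in Padi4 KO was common among abundant genes. Of the 208 genes with at least 500 counts on average, a limit chosen after the values were seen, 79.3% were called lower in unstimulated Padi4 KO than in WT and 62.5% after R848, beside 14.4% and 7.84% of all genes tested. S100a6, S100a8, S100a9 and S100a11 all belong to these 208 genes, and 4 of these 4 were called lower without stimulation and 3 of 4 after R848. Among the 208 genes, 61.1% were called higher after R848 in WT and 67.3% in Padi4 KO. All shares over these 208 genes, here and below, were taken with TMM factors and were not computed by library size alone. In that scaling 77.2% of the genotype calls over all genes were higher without stimulation and 81.8% after R848, and S100a6 was not called.

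S100a4 was higher in Padi4 KO than in WT with and without R848. It had 17 and 19 counts (26.3 and 32.8 CPM) in unstimulated WT and 78 and 111 counts (88.1 and 80.5 CPM) in unstimulated Padi4 KO. With R848 it had 24 and 25 counts (49.0 and 44.2 CPM) in WT and 122 and 107 counts (108.4 and 98.3 CPM) in Padi4 KO. All Padi4 KO libraries lay above all WT libraries, by 2.84-fold in the fit without stimulation (95% interval of log2 1.03 to 1.98, adjusted p = 2.2e-08 in edgeR) and 2.22-fold after R848 (log2 1.15, SE 0.22, adjusted p = 3.8e-06). Both calls were made with each tool, filter and scaling tried and without each single library. After R848 the log2 fold change was 0.66 in WT (SE 0.32, adjusted p = 0.12) and 0.31 in Padi4 KO (SE 0.15, adjusted p = 0.12), and with TMM factors the libraries with R848 lay above those without it in both genotypes. As shares of the library total, S100a4 in Padi4 KO took 0.0109% and 0.0101% without stimulation and 0.0104% and 0.00943% with R848, which overlap, and the value by library size alone was -0.07. With relative log expression factors the WT value was 0.73 and called (adjusted p = 0.078), and with separate models for each genotype it was 0.78 and called (adjusted p = 0.065). The difference of response was -0.35 (95% interval -1.04 to 0.34).

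S100a10 was higher in Padi4 KO and fell after R848 in Padi4 KO. It had 14 and 18 counts (21.6 and 31.1 CPM) in unstimulated WT and 7 and 7 counts (14.3 and 12.4 CPM) in WT with R848. In Padi4 KO it had 50 and 63 counts (56.5 and 45.7 CPM) without stimulation and 33 and 28 counts (29.3 and 25.7 CPM) with R848. The groups with and without R848 did not overlap in either genotype, and the level of Padi4 KO with R848 lay within the range of unstimulated WT. The fall in Padi4 KO was -0.86 (SE 0.23, adjusted p = 0.0012 in edgeR), and the WT value of -0.97 (SE 0.45, adjusted p = 0.104) missed the threshold. DESeq2 did not call the fall in Padi4 KO (-0.97, adjusted p = 0.101). The WT fall was called by library size alone (-1.27, adjusted p = 0.018) and with the stricter filter (-1.02, adjusted p = 0.055). Without single libraries it ranged from -1.22 to -0.70. The difference of response was 0.11, with a 95% interval from -0.88 to 1.10 that does not exclude a large difference. Padi4 KO was higher than WT by 0.93 without stimulation (SE 0.28, adjusted p = 0.0069) and by 1.05 after R848 (SE 0.40, adjusted p = 0.063). These genotype calls were less firm than those of S100a4. DESeq2 made neither, with values of 1.01 (adjusted p = 0.17) and 0.95 (adjusted p = 0.37). The first was lost without replicate 1 of unstimulated WT (0.68), and the second without either library of WT with R848 (1.03 and 0.86) or replicate 1 of Padi4 KO with R848 (0.95).

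**Figure D4:**
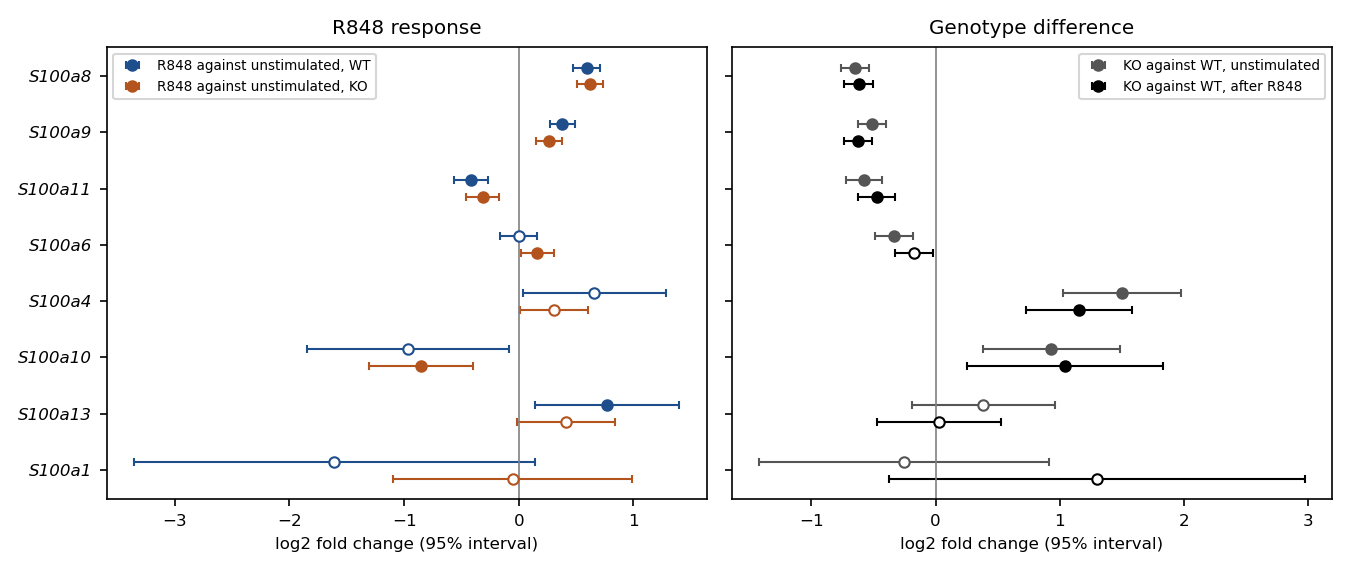
Log2 fold changes with 95% intervals of the 8 members from the edgeR fit: left, R848 against unstimulated in WT and Padi4 KO, and right, Padi4 KO against WT without and with R848. Filled points passed a false discovery rate of 0.1; S100a8, S100a9 and S100a11 lie left of 0 and S100a4 and S100a10 right of 0 in both genotype comparisons.

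Genes that mark monocytes and macrophages were higher in unstimulated Padi4 KO as a sum, while after R848 the order of the genotypes depended on the scaling. As CPM of library totals, the 13 genes summed to 2147 and 2167 in unstimulated WT and 3457 and 3536 CPM in unstimulated Padi4 KO. With R848 they summed to 3621 and 3712 CPM in WT and 3943 and 4055 CPM in Padi4 KO. With TMM factors the sums were 2103 and 2128 CPM in WT and 2799 and 2826 CPM in Padi4 KO without stimulation, but 4394 and 4509 CPM in WT and 4108 and 4244 CPM in Padi4 KO with R848. The sums with R848 do not describe most of the list. After R848, 4 of the 13 were called higher and 7 lower in each genotype (median log2 -0.84 in WT and -0.93 in Padi4 KO). Of all genes 29.5% and 35.1% were called. Adgre1 alone went from 26 and 22 counts to 1240 and 1332 in WT, and from 35 and 47 to 2091 and 1892 in Padi4 KO. In the fit, 8 of the 13 genes were called higher and 1 lower in Padi4 KO without stimulation, where 9.54% of all genes were higher and 14.4% lower, and 6 higher and 1 lower after R848, where 9.44% and 7.84% were. None of the 13 was at 0 in every library. The erythroid sums above separated the genotypes as well, and 7 of the 8 erythroid genes tested were called higher in Padi4 KO without stimulation and 8 of 8 after R848, beside the same 9.54% and 9.44% of all genes. Stromal and endothelial genes summed to 201 to 229 CPM in unstimulated WT and 523 to 661 CPM in unstimulated Padi4 KO, but to 32.9 to 47.6 CPM with R848 in both genotypes. Megakaryocyte genes, in WT and Padi4 KO respectively, summed to 85.3 to 88.9 and 164 to 194 CPM without stimulation and to at most 14.8 and 40.6 CPM with R848. The immature neutrophil genes, like S100a8, S100a9 and S100a11, were lower in Padi4 KO, and 11 of 11 were called lower without stimulation and 10 of 11 after R848. In response to R848, 2 of the 11 were called higher and 7 lower in each genotype (median log2 -0.73 in WT and -0.90 in Padi4 KO), beside the same 29.5% and 35.1% of all genes called. Their sums hide this fall, since Lcn2 went from 7173 and 6592 counts to 15413 and 17919 in WT. Of the 6 neutrophil genes, 5 were called lower in Padi4 KO without stimulation (median log2 -0.50) and 4 after R848 (-0.27), with TMM factors. Mmp8, Mmp9 and Retnlg hold most of the counts of this list, so its sums say less about Itgam, Csf3r and Cxcr2. Beside these, 14.4% and 7.84% of all genes were lower, and 79.3% and 62.5% of those with at least 500 counts on average. Of the immature neutrophil genes, Elane, Mpo, Prtn3, Ctsg, Fcnb and Cebpe do not reach that level. The part of these other cells, or of neutrophil maturation, in the S100 levels was not tested.

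S100a13 and S100a1 were low. S100a13 had 20 and 14 counts (30.9 and 24.2 CPM) in unstimulated WT, 22 and 28 (44.9 and 49.5 CPM) in WT with R848, 33 and 49 (37.3 and 35.5 CPM) in unstimulated Padi4 KO and 62 and 45 (55.1 and 41.3 CPM) in Padi4 KO with R848. With TMM factors the libraries with R848 lay above those without it in both genotypes. As shares of the library total they overlapped in Padi4 KO, at 0.00461% and 0.00444% without stimulation and 0.00526% and 0.00397% with R848, where the log2 fold change by library size alone was 0.04. With TMM the log2 fold change was 0.77 in WT (SE 0.32, adjusted p = 0.063 in edgeR) and 0.41 in Padi4 KO (SE 0.22, adjusted p = 0.15). Without single libraries the Padi4 KO value ranged from 0.19 to 0.60. The WT call was lost with DESeq2, by library size alone (0.47), without replicate 2 of unstimulated WT (0.61) and without replicate 2 of WT with R848 (0.79). Padi4 KO and WT differed by 0.38 without stimulation (95% interval -0.19 to 0.96) and by 0.03 after R848 (95% interval -0.47 to 0.52), neither of them called.

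S100a1 had 7 and 4 counts in unstimulated WT, 2 and 1 in WT with R848, 6 and 11 in unstimulated Padi4 KO and 12 and 4 in Padi4 KO with R848. Its levels in WT with R848 were below the 3 counts taken as the limit of detection, and no change of S100a1 was called with TMM factors. By library size alone the WT value of -1.90 was called lower (adjusted p = 0.092 in edgeR). At this depth the 95% interval of the log2 fold change after R848 in WT with TMM factors, -3.36 to 0.14, does not exclude a large fall.

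The members did not vary as one block across the 8 libraries, whose differences in group and depth all pairs share. Log2 levels of S100a8 and S100a9 had a Pearson correlation of 0.94, and those of S100a6 with S100a8 and S100a9 of 0.84 and 0.85. S100a10 ran opposite to S100a8 (-0.96) and S100a4 opposite to S100a11 (-0.95). Among 2918 genes with at least 50 counts on average, the genes most like S100a8 were Actb, Actr3 and Nedd9 (0.99 each) and those most like S100a9 were Dnajc13, Slfn2 (0.99 each) and Dusp6 (0.98). The genes most like S100a11 were Phf20l1, Acsl1 and Phactr2 (0.99 each), and those most like S100a6 were Tmsb4x (0.96), Ireb2 (0.96) and Card6 (0.95). S100a4 was most like Ccnb1, a mitotic cyclin (0.97), Eef1a1, a translation elongation factor (0.97), and Rps13, a ribosomal protein (0.96). These are descriptions over 8 libraries in 4 groups and carry no test.

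A list of 59 receptors, binding partners and regulators of S100 proteins was examined beside them, of which 55 were tested. After R848, 21 were called higher and 12 lower in WT, where 29.5% of all genes were called, and 23 higher and 14 lower in Padi4 KO, where 35.1% were. Padi4 KO against WT gave 7 higher and 23 lower without stimulation, where 9.54% of all genes were higher and 14.4% lower, and 5 higher and 20 lower after R848, where 9.44% were higher and 7.84% lower. Among genes with at least 500 counts on average the lower share was 79.3% and 62.5%, but most of the 55 are less abundant. All 6 oxidase genes reach that level, against 1 of 12 receptors, 3 of 15 bound proteins, 2 of 10 calcium sensors and 2 of 12 transcription factors. In the difference of response 5 were called higher and 5 lower, where 4.69% of all genes were called. The list was written with earlier results of these data known.

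Among receptors, Cd14, the co-receptor of TLR4, had 5 and 11 counts in unstimulated WT, 1517 and 1473 in WT with R848, 20 and 40 in unstimulated Padi4 KO and 1586 and 1437 in Padi4 KO with R848. The Padi4 KO libraries were deeper, and in TMM-scaled CPM Cd14 had 3096 and 2607 in WT with R848 and 1409 and 1320 in Padi4 KO with R848. Padi4 KO was called higher than WT without stimulation (log2 1.01, SE 0.35) and lower after R848 (-1.06, SE 0.07). Cd14 rose by log2 7.75 in WT (SE 0.15) and 5.68 in Padi4 KO (SE 0.12), and the responses differed by -2.07 (SE 0.35, adjusted p = 3.8e-06 in edgeR). Tlr4, the receptor through which extracellular S100A8/A9 signals, had 35 and 32 counts in unstimulated WT and 23 and 20 in WT with R848, against 53 and 51 and then 20 and 14 in Padi4 KO. Scaled with TMM factors, Tlr4 had 54.1 and 55.2 CPM in unstimulated WT and 59.9 and 37.0 CPM in unstimulated Padi4 KO, a difference of -0.24 that was not called. After R848 it was called lower in Padi4 KO than in WT (-1.40, SE 0.34). The fall after R848 was -1.58 in Padi4 KO (SE 0.27), and the WT value was -0.42 (SE 0.29, adjusted p = 0.32). The responses differed by -1.16 (SE 0.41, adjusted p = 0.095), a call lost when any one of 6 of the 8 libraries was left out. Cd33, a sialic acid receptor that binds S100A9, was lower in Padi4 KO without stimulation (-0.69, SE 0.09, adjusted p = 1.3e-12).

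Anxa2, the partner of S100A10, had 1350 and 1311 CPM in unstimulated WT, 782 and 747 CPM in WT with R848, 1007 and 985 CPM in unstimulated Padi4 KO and 729 and 726 CPM in Padi4 KO with R848. It fell after R848 by -0.80 in WT (SE 0.09) and -0.45 in Padi4 KO (SE 0.08), beside S100a10 values of -0.97 in WT (not called) and -0.86 in Padi4 KO, whose tested difference of 0.11 was not called. Without stimulation it was lower in Padi4 KO (-0.42, SE 0.08, adjusted p = 1.4e-06 in edgeR), where S100a10 was higher. After R848 the Anxa2 value was -0.07 (SE 0.09, adjusted p = 0.70) and not called, where S100a10 was still higher (1.05). Ahnak, a large scaffold bound by the annexin A2 and S100A10 complex and chosen after its values were seen, was higher in Padi4 KO without stimulation (0.94, SE 0.19) and after R848 (0.81, SE 0.24). Among other bound proteins, Plaur, the urokinase receptor, was lower (-0.95, SE 0.12) and Tubb5, a beta-tubulin, higher (1.37, SE 0.13) in Padi4 KO after R848. Myh9, the non-muscle myosin heavy chain that S100A4 binds, was lower in unstimulated Padi4 KO (-0.53, SE 0.07, adjusted p = 2.3e-13).

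The phagocyte oxidase genes encode proteins to which S100A8/A9 delivers arachidonic acid. All 6 have at least 500 counts on average. After R848, 5 of 6 were called higher and 0 lower in each genotype, where 61.1% of genes that abundant were higher in WT and 67.3% in Padi4 KO. In Padi4 KO, 6 of 6 were called lower without stimulation and 5 of 6 after R848, where 79.3% and 62.5% of genes that abundant were lower, so the counts are near those of their abundance class. Ncf1, which encodes p47phox, had 2901 and 2895 CPM in unstimulated WT, 4803 and 5068 CPM in WT with R848, 1702 and 1629 CPM in unstimulated Padi4 KO and 4116 and 3949 CPM in Padi4 KO with R848. Its response was larger in Padi4 KO by 0.51 (SE 0.09, adjusted p = 1.5e-05 in edgeR), as was that of Cyba, which encodes p22phox, by 0.52 (SE 0.12, adjusted p = 0.0021). Neither difference was called without replicate 1 of WT with R848 (0.21 and 0.14).

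Of 12 transcription factors known to act at S100a8 and S100a9, 6 were called higher and 3 lower after R848 in each genotype. Of all genes 29.5% were called in WT, with 13.5% higher and the rest lower, and 35.1% in Padi4 KO, with 19.2% higher and the rest lower. Cebpb, which encodes a leucine zipper factor of emergency granulopoiesis, had 368 and 376 CPM in unstimulated WT, 1094 and 1394 CPM in WT with R848, 455 and 458.3 CPM in unstimulated Padi4 KO and 913 and 880 CPM in Padi4 KO with R848. It rose by 1.75 in WT (SE 0.09) and 0.97 in Padi4 KO (SE 0.08), with a difference of -0.77 (SE 0.13, adjusted p = 3.6e-07 in edgeR). Hif1a, the hypoxia-inducible factor, rose by 2.84 in WT (SE 0.16) and 2.03 in Padi4 KO (SE 0.13), with a difference of -0.81 (SE 0.23, adjusted p = 0.020) that was not called without replicate 2 of unstimulated WT (-0.65) or replicate 2 of unstimulated Padi4 KO (-0.38). Cebpe, needed for the late steps of granulocyte maturation, was lower in unstimulated Padi4 KO (-0.88, SE 0.13, adjusted p = 4.4e-10), and the value after R848 was -0.30 (SE 0.19, adjusted p = 0.36). Among the 10 other EF-hand calcium sensors, 7 were called lower and 0 higher in unstimulated Padi4 KO, where 14.4% of all genes and 79.3% of those with at least 500 counts were lower. Of these 10 sensors 2 are that abundant. After R848, 3 were lower and 1 higher in Padi4 KO, the latter Calm3 (0.43, SE 0.15), beside 7.84% and 9.44% of all genes. Lcp1, the actin-bundling protein L-plastin, rose after R848 by 1.19 in WT (SE 0.06) and 1.12 in Padi4 KO (SE 0.06).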

How the data were processed

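The authors sequenced RNA from 8 libraries, trimmed the reads with cutadapt 1.16, mapped them to mm10 with STAR 2.5.3a and counted them on genes with HTSeq 0.6.1p1, and the deposited values are raw counts per gene symbol. The annotation and strand setting are not given in the sources used here. HTSeq summary rows were left out, and 87.0% to 89.4% of the reads in the table were on genes. Groups came from the labels. With edgeR 4.0.16 (limma 3.58.1, R 4.3.3), 1 robust quasi-likelihood model with TMM factors and a mean per group was fitted to genes with at least 1 count in at least 2 libraries, with Benjamini-Hochberg adjustment. The study's methods name DESeq2, run here (1.42.0) as an alternative. The SE is the log2 fold change over the square root of F. Correlations used a prior count of 1. Genes named were all members, partners called in the difference of response, the 5 called partners of smallest p per remaining contrast, and the 3 genes most alike to each member with at least 50 counts on average. The members and lists were chosen with earlier results of these data known. The fit was run on simulated counts only to check the code, and no result here rests on that run. Duplicates differed by more than counting noise (chi-square per degree of freedom 1.05 to 1.67).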

Additional observations from a re-analysis of the deposited data

Results flagged for a closer look

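The R848 response of 10 genes on the list of S100 partners and regulators differed between the genotypes in the direct test (edgeR's quasi-likelihood test, adjusted p below 0.1), of 55 tested, where 4.69% of all genes were called. None of the 8 S100 members was called, a number too small to set against that share. The response was smaller in Padi4 KO, or fell further, for Cd14 (log2 difference -2.07), Tlr4 (-1.16), Plaur, the urokinase receptor (-0.82), Hif1a (-0.81) and Cebpb (-0.77). It was larger, or fell less, for Tubb5, a beta-tubulin (0.70), Calm3, a calmodulin gene (0.66), Cyba (0.52), Ncf1 (0.51) and Anxa2 (0.35). DESeq2 did not call Cyba, Tubb5, Calm3 or Anxa2, and relative log expression factors ended the calls of Calm3 (adjusted p = 0.16) and Anxa2 (0.56). Library size alone (0.28, adjusted p = 0.24) and library size without S100a8 and S100a9 (0.27, adjusted p = 0.26) also ended the call of Anxa2, and the looser filter that of Tlr4 (adjusted p = 0.104). Leaving out 1 library ended the call of Anxa2 in 8 of 8 runs, of Tlr4 in 6, of Calm3 in 4, of Hif1a in 2, and of Ncf1, Cyba and Tubb5 without replicate 1 of WT with R848 (0.21, 0.14 and 0.25).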

How the results depend on the processing

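The calls of S100a8 and S100a11 after R848, and of S100a4, S100a8, S100a9 and S100a11 between genotypes, kept their direction and side of the threshold under each tool, scaling and filter and without each library. With the 2-fold limit, 0 members were called in WT and 0 in Padi4 KO after R848. With DESeq2, 2 were called in Padi4 KO, S100a8 and S100a11. Over all genes, DESeq2 called 2264 after R848 in WT, 2121 in Padi4 KO, 125 in the difference, 1061 between unstimulated genotypes and 1008 after R848, against 3620, 4298, 575, 2936 and 2118 with edgeR. In the difference of response, 1 member was called with relative log expression (RLE) factors (S100a9), where 393 of the 12254 genes tested were called. When a library was left out, the difference of S100a9 ranged from -0.52 to -0.093. The share of S100a8 plus S100a9 over all reads in the table was 6.51% in unstimulated WT, 5.46% in unstimulated Padi4 KO and 5.58% in Padi4 KO with R848, since that denominator is larger. Over the TMM effective size it was 10.1% in WT with R848, 4.96% in unstimulated Padi4 KO and 6.53% in Padi4 KO with R848.

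Reversed log2 values were these. In the WT response, S100a6 stood at 0.071 with DESeq2, 0.069 with RLE, 0.0025 with the replicate block and 0.12 with separate models. In the Padi4 KO response, library size alone and library size without S100a8 and S100a9 gave -0.071 and -0.069 for S100a4, -0.21 and -0.21 for S100a6, and -0.11 and -0.11 for S100a9. In the difference, S100a8 was -0.13 with DESeq2, -0.13 with RLE, and -0.038 and -0.050 by those library sizes, S100a10 -0.058 with DESeq2 (adjusted p not given by the tool) and -0.043 with RLE, and S100a11 -0.051 with DESeq2 and with RLE. In Padi4 KO against WT, those library sizes gave 0.031 and 0.011 for unstimulated S100a1 and 0.044 and 0.013 for S100a6 after R848, and S100a13 after R848 was -0.070 with DESeq2 and -0.071 with RLE. The causes were not tested. Without single libraries the WT response of S100a6 ranged from -0.12 to 0.20 and the Padi4 KO response of S100a1 from -1.0005 to 0.50. The difference ranged from -0.17 to 0.28 for S100a6, -0.32 to 0.19 for S100a8, -0.22 to 0.36 for S100a10 and -0.19 to 0.13 for S100a11. Padi4 KO against WT ranged from -0.52 to 0.12 for unstimulated S100a1 and from -0.20 to 0.22 for S100a13 after R848.

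The replicate numbers did not pair the libraries (correlations of deviations -0.01 to 0.04), and with the replicate block the members called stayed at 4, 5, 0, 6 and 5. A group left with 1 library was assumed to vary like the others. Depth limits S100a1, S100a10 and S100a13.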
